A study of Mus musculus with 48 samples.

Results

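Transcripts of the red blood cell lineage were followed in brain RNA through 5 erythroid genes, Hba-a1, Hba-a2, Hbb-b2, Alas2 and Slc4a1, out of 19752 genes named on the mRNA arrays. The genes were found by matching the RefSeq transcript given for each probe to its symbol, and each had 1 probe, so that no choice between probes was needed. The rule used their known function and no measured value.

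Samples came from male mice aged 10 or 17 months. WT mice were C57BL/6J, and Tg2576 mice, strain Tg(APPSWE)2576Kha, carry the Swedish mutant of human APP driven by the hamster prion protein promoter. RNA was taken from cortex or from whole brain, which gave 8 groups of 3 samples, each with 1 mRNA array and 1 miRNA array. The labels number the samples 1 to 3 within each group but do not state that each is a separate animal, so p-values measure only the spread between these samples, which may be technical. The methods consulted do not state whether blood was washed out of these brains by perfusion.

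Mature red blood cells have no nucleus, but the youngest of them, the reticulocytes, still carry the RNA for haemoglobin and for the enzymes that make its haem. Whole brain and cortex contain blood vessels, and blood that stays in them contributes this RNA to the tissue extract. Globin transcripts have also been described at low levels in neurons and glia. In RNA from bulk tissue, fewer red cells and less RNA per red cell cannot be told apart.

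Hba-a1 and Hba-a2 encode the alpha chain of adult haemoglobin and Hbb-b2 encodes a beta chain. Alas2 is the erythroid form of the enzyme that starts haem synthesis, and Slc4a1 encodes band 3, the anion exchanger of the red cell membrane. In RefSeq (GRCm38.p6), Hba-a1 lies at chr11:32283672-32284486, Hba-a2 at chr11:32296492-32297310, Slc4a1 at chr11:102348820-102365281 and Alas2 at chrX:150547417-150570622. No start or end on that build was recorded for Hbb-b2. The alpha globin genes are near-identical copies, and Hbb-b2 resembles the other adult beta globin genes. The files used do not give the letters of the probes, so signal may be shared between such copies, and each of these globin values is uncertain as a measure of 1 gene alone. Values under the name Hbb-b2 may thus be signal of other adult beta globin genes.

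Promoters of an alpha globin gene and of Alas2 are shown because these genes moved together from array to array. Each sequence is the 250 bases before the gene's start in RefSeq (GRCm38.p6), on the gene's own strand. Capitals mark GATAA (bound by GATA factors), CCACCC (bound by Klf1 and related factors) and CCAAT on either strand.
Hba-a1, chr11:32283422-32283671, plus strand: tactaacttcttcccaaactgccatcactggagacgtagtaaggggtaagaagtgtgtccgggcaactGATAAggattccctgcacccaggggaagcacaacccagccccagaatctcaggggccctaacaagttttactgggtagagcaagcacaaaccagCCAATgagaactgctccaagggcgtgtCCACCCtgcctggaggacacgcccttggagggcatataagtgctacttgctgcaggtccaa
Alas2, chrX:150547167-150547416, plus strand: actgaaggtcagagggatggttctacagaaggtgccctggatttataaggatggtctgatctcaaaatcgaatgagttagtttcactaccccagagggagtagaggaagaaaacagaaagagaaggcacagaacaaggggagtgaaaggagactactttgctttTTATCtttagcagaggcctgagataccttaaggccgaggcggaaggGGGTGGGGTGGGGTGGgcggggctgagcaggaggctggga
The Hba-a1 window held 1 GATAA at 182 bases, 1 CCAAT at 88 bases and 1 CCACCC at 61 bases before the start. The Alas2 window held GATAA on the reverse strand at 86 bases, and CCACCC on the reverse strand at 40, 35 and 30 bases, where neighbouring matches share a base. Of 32851 promoter windows of the same length, 22.6% held GATAA, 28.1% CCACCC and 33.8% CCAAT. Entries were found for 3 of the 5 genes, and the Hba-a1 and Hba-a2 windows shared a run of 247 bases.

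All 24 mRNA arrays were single-colour and lay on 3 slides. Between 34155 and 41087 probes per array were well above background, and the 75th percentile of the processed intensity ranged from 507 to 824. All 8 neuron marker genes examined (Snap25, Syt1 and others) were well above background on all 24 arrays. Every value below is the log2 of the processed intensity minus the log2 of that array's 75th percentile, called the log2 value, and 1 unit is a change of 2-fold. The number of arrays limits the precision of every comparison.

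The 5 erythroid genes were well above background on all 24 arrays, and none was saturated. Their levels varied widely. Hbb-b2 ranged from -0.82 to 5.52, a span of 81.2-fold, with processed intensities from 397 to 32068. Alas2 ranged from -4.98 to 0.64 (49.4-fold), Hba-a1 from 0.69 to 6.32 (49.3-fold) and Hba-a2 from 2.68 to 7.75 (33.4-fold). Slc4a1 was near the floor of the arrays, with intensities from 28.8 to 82.0, and spanned only 2.62-fold, from -4.41 to -3.02. The lowest array for the 3 globin genes and Alas2 was Tg2576 cortex 17 months sample 2, and the highest was sample 3 of the 10-month-old WT mice, in cortex for Hba-a1 and in whole brain for the other 3.

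**Figure D1:**
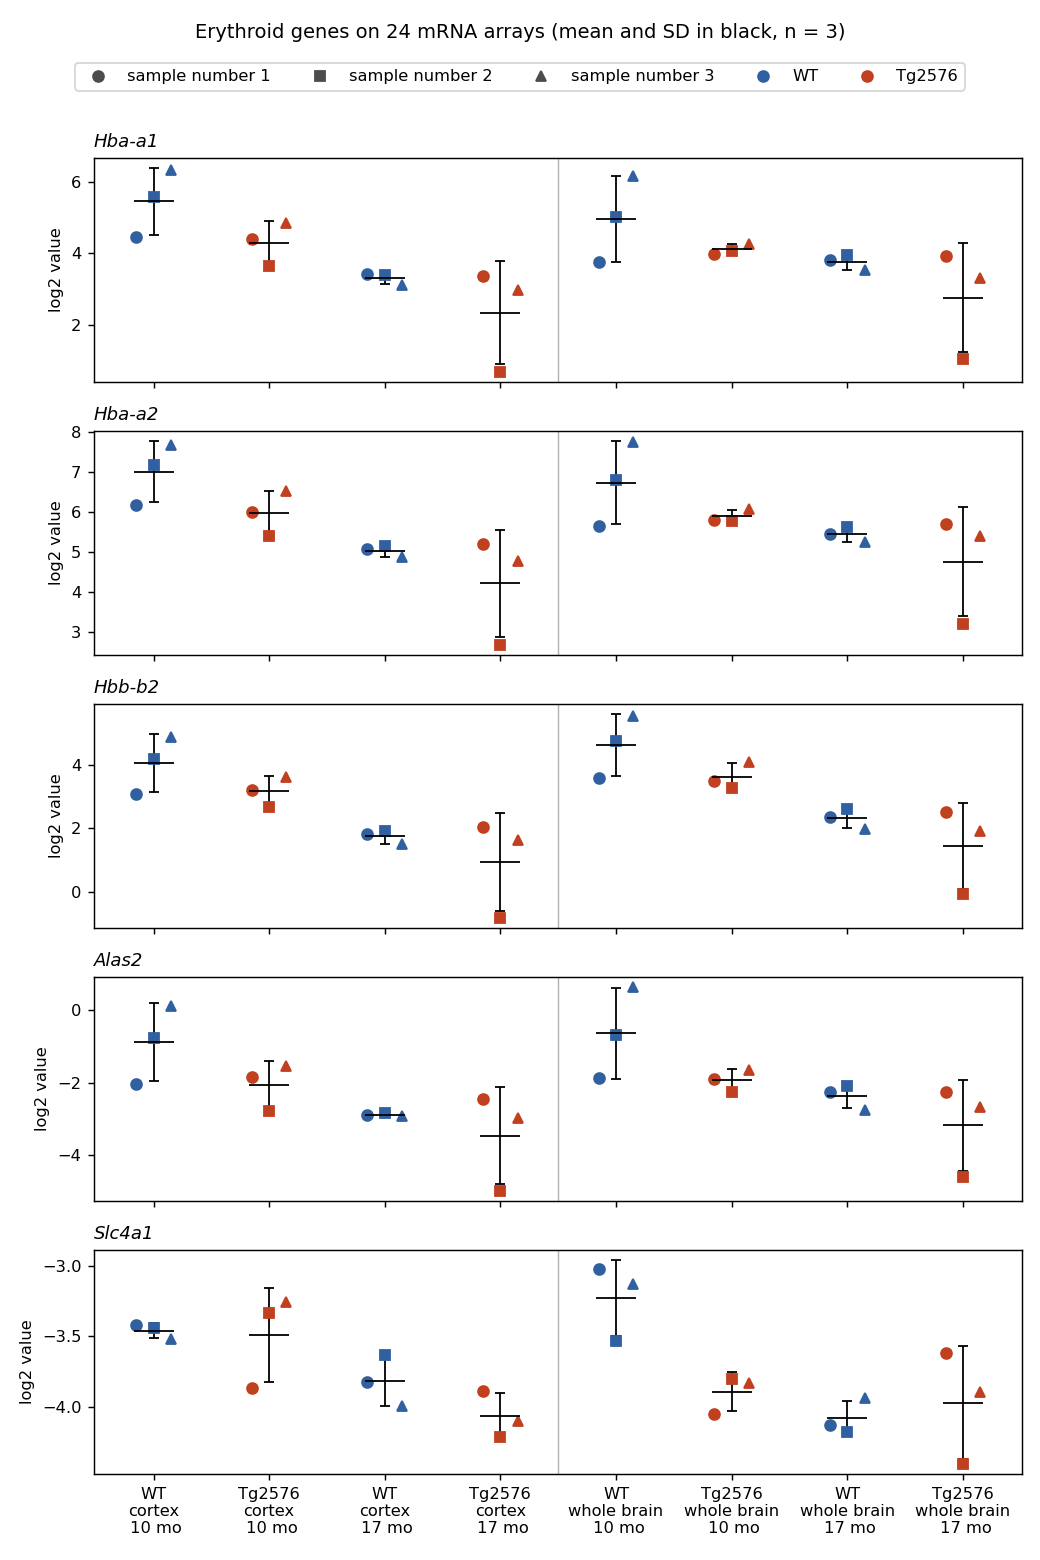
Log2 values of the 5 erythroid genes on each of the 24 mRNA arrays (y axis, log2 processed intensity minus the 75th percentile of the array) by group (x axis). Symbols give the sample number, blue is WT and red is Tg2576, and black lines give the mean and SD of 3 samples. The globin genes and Alas2 are highest in WT 10-month sample 3 and lowest in Tg2576 17-month sample 2, in both tissues.

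Hba-a1 stood for the alpha globins. In WT cortex its log2 values were 4.47, 5.57 and 6.32 at 10 months and 3.41, 3.38 and 3.12 at 17 months. In Tg2576 cortex they were 4.39, 3.63 and 4.86 at 10 months and 3.37, 0.69 and 2.96 at 17 months. Every 17-month cortex thus lay under every 10-month cortex. The WT whole brain values were 3.74, 5.01 and 6.14 at 10 months and 3.80, 3.94 and 3.52 at 17 months, and here the ages overlapped. In Tg2576 whole brain they were 3.98, 4.06 and 4.27 at 10 months and 3.93, 1.05 and 3.31 at 17 months. Sample 2 was far under the other Tg2576 samples of 17 months in both tissues.

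Hba-a2 followed the same order. Its means in cortex were 7.01 ± 0.77 (SD, n = 3) in WT and 5.98 ± 0.56 in Tg2576 at 10 months, and 5.03 ± 0.15 and 4.22 ± 1.35 at 17 months. In whole brain they were 6.74 ± 1.04 and 5.89 ± 0.16 at 10 months, and 5.45 ± 0.19 and 4.76 ± 1.37 at 17 months. The largest SDs belonged to the Tg2576 groups of 17 months, and the next to the WT groups of 10 months.

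Hbb-b2, the beta globin, had log2 values of 3.07, 4.18 and 4.89 in WT cortex at 10 months and 1.82, 1.91 and 1.49 at 17 months. WT whole brain gave 3.58, 4.76 and 5.52 at 10 months and 2.35, 2.60 and 1.99 at 17 months. The ages did not overlap in either tissue. In Tg2576 cortex the values were 3.21, 2.67 and 3.61 at 10 months and 2.04, -0.82 and 1.62 at 17 months. In Tg2576 whole brain they were 3.48, 3.26 and 4.09 at 10 months and 2.50, -0.08 and 1.90 at 17 months. The ages were apart here as well, with sample 2 again the lowest.

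Alas2, the haem enzyme, measured -2.02, -0.75 and 0.12 in WT cortex at 10 months and -2.88, -2.84 and -2.92 at 17 months. WT whole brain gave -1.87, -0.69 and 0.64 at 10 months and -2.25, -2.10 and -2.74 at 17 months. The ages were apart in both WT tissues, and the 10-month samples were spread over more than 2 log2 units. In Tg2576 cortex it measured -1.84, -2.79 and -1.55 at 10 months and -2.44, -4.98 and -2.96 at 17 months. Tg2576 whole brain gave -1.89, -2.25 and -1.65 at 10 months and -2.25, -4.61 and -2.68 at 17 months. Sample 1 of 17 months reached the 10-month range in both Tg2576 tissues.

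Slc4a1, the membrane protein gene, measured -3.42, -3.44 and -3.52 in WT cortex at 10 months and -3.83, -3.63 and -3.99 at 17 months. WT whole brain gave -3.02, -3.53 and -3.13 at 10 months and -4.13, -4.18 and -3.94 at 17 months. Sample 3 of the 10-month-old WT mice, the highest for globins, was the lowest of its group for Slc4a1 in cortex. In Tg2576 cortex it measured -3.87, -3.34 and -3.26 at 10 months and -3.89, -4.22 and -4.10 at 17 months. Tg2576 whole brain gave -4.06, -3.80 and -3.83 at 10 months and -3.62, -4.41 and -3.89 at 17 months, where the ages overlapped.

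Ordered by group mean, the 2 WT groups of 10 months came first for all 5 genes. The Tg2576 groups of 17 months were the last pair for the globins and Alas2, with Hba-a1 means of 2.76 ± 1.51 in whole brain and 2.34 ± 1.44 in cortex. Most neighbours in these orders did not differ beyond their spread, since only 2 of the 7 steps of each gene were larger than the pooled SD of the groups on either side. WT whole brain and WT cortex of 17 months were neighbours that did not overlap for the 3 globins and Alas2. No neighbouring groups of Slc4a1 were free of overlap.

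The first comparison asked how the erythroid genes differed between 17 and 10 months. All 20 differences, 5 genes in 4 pairs of groups, were lower at 17 months, and in 16 of the 20 the groups did not overlap. Hbb-b2 showed the most even difference, between -2.31 and -2.17 on the log2 scale in all 4 pairs, or 4.50-fold to 4.95-fold lower. Only 4 of the 20 passed an adjusted p of 0.05 in limma, all of them in WT mice.

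In WT cortex, 2 of the 5 genes were called lower, beside 1.62% of the 39512 probes tested (4.56% in either direction). Hba-a2 fell by 1.98 (SE 0.37, 3.94-fold, limma adjusted p = 0.0458) and Hbb-b2 by 2.31 (SE 0.44, 4.95-fold, adjusted p = 0.0473). Hba-a1 differed by -2.15 (SE 0.45, 4.43-fold, limma adjusted p = 0.0537), Alas2 by -2.0 (SE 0.51, 3.99-fold, adjusted p = 0.0768) and Slc4a1 by -0.36 (SE 0.11, 1.28-fold, adjusted p = 0.105). None of the 5 genes overlapped between ages, compared with 17.2% of all probes lower without overlap. The differences within slide 1, which held 2 of the 17-month and all 3 of the 10-month arrays, were -2.06, -1.89, -2.18, -1.98 and -0.27 for Hba-a1, Hba-a2, Hbb-b2, Alas2 and Slc4a1. Neither call was kept when slide or sample number was a block (limma adjusted p from 0.0833 to 0.123). Under the sample number block 0% of all probes were called. Nor was either call kept when any 1 of the 6 samples was left out. With a sample left out, 0 to 16 of all probes were called, in place of 1802. Hba-a1 and Alas2 were called as well with normexp background correction.

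In WT whole brain, 2 of the 5 genes were called lower beside 15.2% of the 37641 probes tested (27.8% in either direction), a background much higher than in cortex. Hbb-b2 fell by 2.31 (SE 0.48, 4.95-fold, limma adjusted p = 0.0193) and Slc4a1 by 0.86 (SE 0.15, 1.81-fold, adjusted p = 0.0118). Hba-a2 differed by -1.29 (SE 0.50, limma adjusted p = 0.102) and Alas2 by -1.72 (SE 0.61, adjusted p = 0.082), both without overlap, and Hba-a1 by -1.21 with overlap. In all, 4 of the 5 genes did not overlap, beside 27.2% of all probes lower without overlap. The 10-month arrays of this pair lay on slide 2 and the 17-month arrays on slide 3, so slide and age cannot be told apart. With sample number as a block Slc4a1 remained called (limma adjusted p = 0.0353) and Hbb-b2 did not (0.0522), beside 12.6% of all probes called. Leaving out 10-month sample 1, the lowest of the 10-month samples for the globins and Alas2, brought all 5 genes under the threshold. Over the 6 omissions of 1 sample in this pair, 5336 to 7689 of the 37641 probes were called, in place of 10479.

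In Tg2576 cortex, 0 of the 5 genes were called by limma, beside 4.69% of the 39132 probes called lower (10.3% in either direction), and 4 of the 5 had an unadjusted p under 0.05, beside 31% of probes. Hba-a1 differed by -1.95 (SE 0.73), Hba-a2 by -1.76 (SE 0.68), Hbb-b2 by -2.22 (SE 0.75, 4.65-fold) and Slc4a1 by -0.58 (SE 0.18), with limma adjusted p from 0.0931 to 0.141. These 4 did not overlap, beside 19% of all probes lower without overlap. Without sample 2 of 17 months the differences were -1.12, -0.998, -1.33, -0.64 and -0.51 for Hba-a1, Hba-a2, Hbb-b2, Alas2 and Slc4a1. Slide and age cannot be told apart in this pair. By the methods' t-test, 0 of the 5 genes had an unadjusted p under 0.05, whereas normexp and the model of all 24 arrays each called 2.

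In Tg2576 whole brain, 0 of the 5 genes were called by limma, beside 5.54% of the 37899 probes called lower (12.1% in either direction), and 1 had an unadjusted p under 0.05, beside 31.7% of probes. That gene was Hbb-b2, with a difference of -2.17 (SE 0.65, 4.50-fold, limma adjusted p = 0.0794). Hba-a1 differed by -1.34 (SE 0.70) and Hba-a2 by -1.13 (SE 0.64), and these 2 and Hbb-b2 did not overlap, beside 20.1% of all probes lower without overlap. Slc4a1 differed by -0.08 (SE 0.21). Within slide 3, which held all 17-month and 2 of the 10-month arrays, the Hbb-b2 difference was -2.24. Without sample 2 of 17 months Hba-a1 differed by -0.49, Hbb-b2 by -1.41 and Slc4a1 by 0.14.

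The median difference over the 5 genes was -2.0 in WT cortex, -1.76 in Tg2576 cortex, -1.29 in WT whole brain and -1.25 in Tg2576 whole brain. The median over all probes tested lay between -0.03 and -0.01 in the same comparisons. Which age difference is larger in which genotype or tissue could not be shown, because 0 of the 5 genes were called for genotype by age or tissue by age in limma. The background of those tests was 0% of probes for genotype by age in both tissues, 0.706% for tissue by age in WT mice and 0.0962% in Tg2576 mice. Slc4a1 had an unadjusted p under 0.05 for genotype by age in whole brain (0.78, SE 0.27, limma adjusted p = 0.216), as did 16.8% of probes, and for tissue by age in WT mice (0.50, SE 0.19, adjusted p = 0.21), as did 18.5% of probes.

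**Figure D2:**
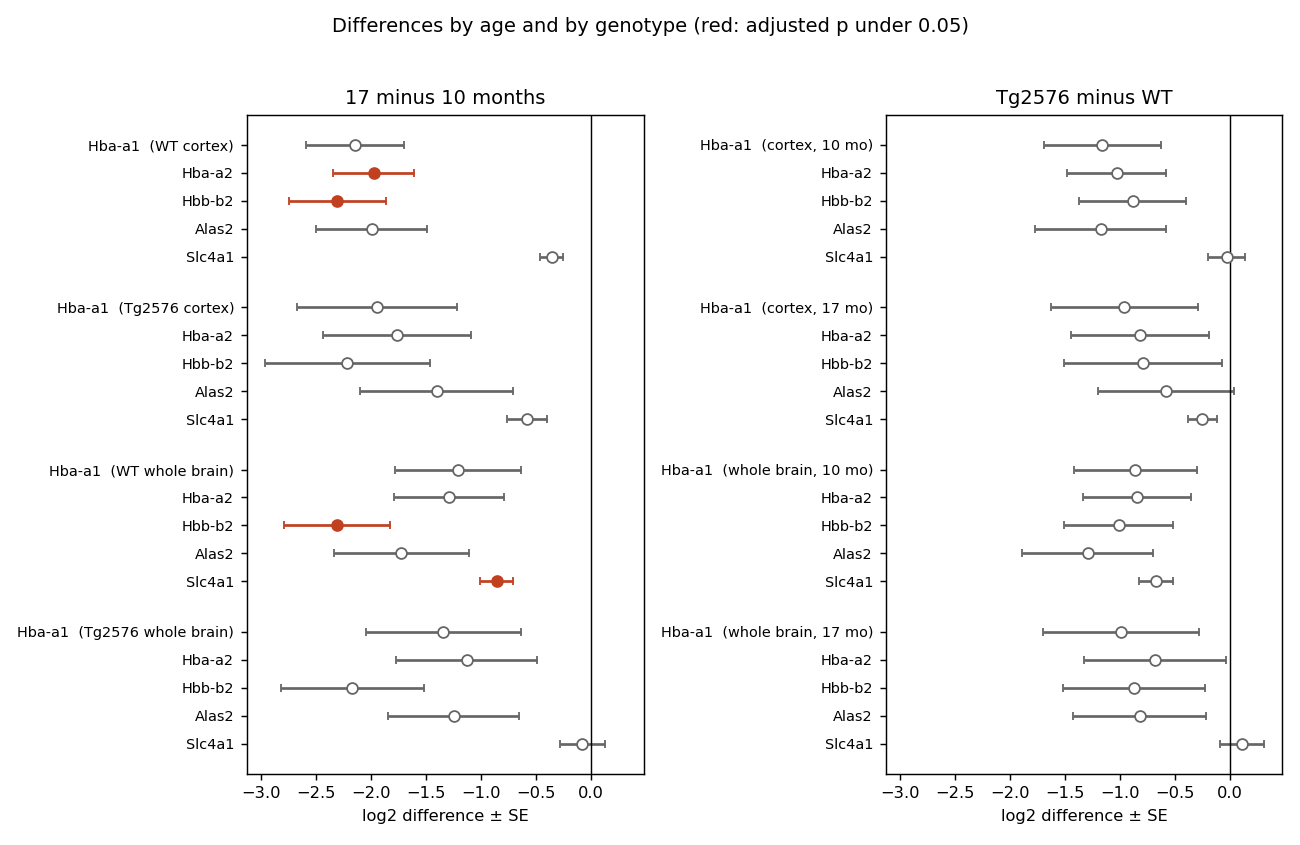
Log2 differences of the 5 erythroid genes with their limma SE (x axis), 17 minus 10 months on the left and Tg2576 minus WT on the right, 3 samples per group. Filled red points have an adjusted p under 0.05, and open points do not. All 20 age differences lie below 0 and 4 are red, while 19 of the 20 genotype differences lie below 0 and none is red.

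The second comparison asked whether Tg2576 mice differed from WT mice of the same age and tissue. The methods name CLEA Japan as the supplier of WT mice and Taconic as that of Tg2576 mice, so genotype and supplier cannot be told apart. Of 20 differences 19 were lower in Tg2576, but 0 were called by limma in any of the 4 comparisons (adjusted p from 0.431 to 0.967), where 0% of all probes were called too. At an unadjusted p under 0.05, 1 of the 20 passed, both in limma and in the methods' t-test. The share of all probes that passed in limma was 9.95% in cortex at 10 months, 9.32% in cortex at 17 months, 11.4% in whole brain at 10 months and 13% in whole brain at 17 months. The 1 difference was that of Slc4a1 in whole brain at 10 months, at -0.67 (SE 0.15, 1.59-fold, limma adjusted p = 0.431). It was also the only difference of the 20 without overlap, beside 9.01% of probes lower without overlap, and in the order of comparisons above 17.2%, 16%, 17.6% and 22% of probes had no overlap in either direction.

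In cortex at 10 months the globin and Alas2 differences were between -1.17 and -0.88 (SE 0.45 to 0.60), and that of Slc4a1 was -0.03. In whole brain at 10 months the former were between -1.29 and -0.85. The median over the 5 genes, -1.03 in cortex and -0.86 in whole brain, became -0.67 and -0.56 without WT sample 3. At 17 months the medians were -0.79 in cortex and -0.82 in whole brain, and without Tg2576 sample 2 they were -0.05 and -0.10. At 17 months the lower medians of Tg2576 mice thus rested on 1 sample number, and at 10 months they were smaller without WT sample 3.

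The third comparison set cortex against whole brain. In every pair the cortex and whole brain arrays lay on different slides, so slide and tissue cannot be told apart. None of the 20 differences was called by limma, and 14 were lower in cortex. The background of called probes was 0.0101% in WT and 0% in Tg2576 mice at 10 months, and 10.3% and 1.97% at 17 months. In WT mice of 17 months the 3 globins and Alas2 did not overlap, beside 17.8% of all probes lower in cortex without overlap. There Hba-a1 differed by -0.45 (SE 0.14, limma adjusted p = 0.0878), Hba-a2 by -0.41 (SE 0.13, adjusted p = 0.0925), Hbb-b2 by -0.57 (SE 0.19, adjusted p = 0.101) and Alas2 by -0.52 (SE 0.17, adjusted p = 0.101), and all 4 had an unadjusted p under 0.05, beside 30.9% of probes. Slc4a1 differed by 0.27 in the other direction. By the methods' t-test, 2 of the 5 had an unadjusted p under 0.05 and 0 passed after adjustment.

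Samples that carry the same number in cortex and in whole brain resembled each other in the 3 globins and Alas2, and less in Slc4a1. The 3 numbers fell in the same order in both tissues in 4 of 4 groups for Hba-a2, Hbb-b2 and Alas2, in 2 groups for Hba-a1 and in 1 for Slc4a1. Of the 32193 probes well above background on all arrays, 0.127% kept the order in 4 groups. It was kept in 2 groups by 12.3%, in 1 by 38.1% and in none by 47.6%. The labels do not say that a number marks the same animal in both tissues.

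With samples matched by number, Hbb-b2 was lower in cortex than in whole brain by a like amount at both ages, at -0.51 ± 0.13 (SD, n = 6) at 10 months and -0.53 ± 0.17 at 17 months. It was lower in cortex in all 12 matches. Hba-a1 was at 0.34 ± 0.42 at 10 months, higher in cortex in 5 of 6 matches, and at -0.44 ± 0.09 at 17 months, lower in cortex in 6 of 6. Hba-a2 was at 0.18 ± 0.34 at 10 months and -0.48 ± 0.09 at 17 months. These values pool the genotypes, match samples by a number not stated to be a pairing, and cannot separate tissue from slide. In them alpha and beta globin differed between tissues in unlike ways at 10 months and in like ways at 17 months. That contrast was not tested. In limma the tissue by age term of Hba-a1 was -0.94 in WT (adjusted p = 0.572) and -0.61 in Tg2576 mice (adjusted p = 0.873). With sample number within each age as a block, limma gave an adjusted p of 0.186 and 0.473.

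The log2 difference of Hbb-b2 minus Hba-a1 within an array carries no order between probes, but can be compared between arrays. It was -1.26 ± 0.18 (SD, n = 6) in cortex at 10 months and -1.48 ± 0.12 at 17 months. In whole brain it was -0.42 ± 0.26 at 10 months and -1.38 ± 0.14 at 17 months. Whole brain at 10 months thus had more beta globin signal for its alpha globin signal than the other 3 sets of 6 arrays. Of those 6 arrays, 4 lay on slide 2 and 2 on slide 3, and the part of slide in this was not tested.

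**Figure D3:**
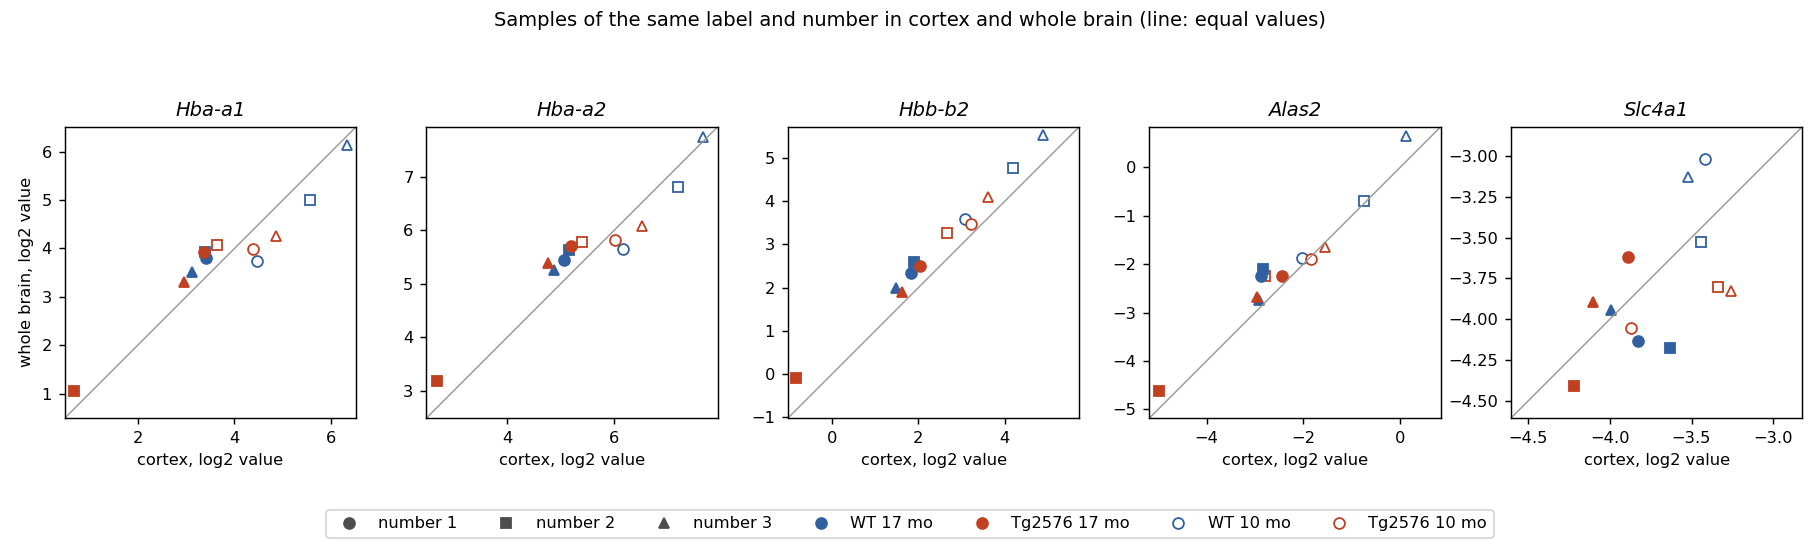
Log2 value in whole brain (y axis) against that in cortex (x axis) for samples with the same group label and number, 1 panel per gene, with the line of equal values. Filled symbols are 17 months and open symbols 10 months, blue is WT and red is Tg2576. Hbb-b2 lies on the whole brain side of the line in all 12 matches, and Slc4a1 scatters on both sides.

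The erythroid genes were then set against each other from array to array, in 30 relations with 12 arrays per tissue. These were the 10 pairs of genes and the 5 genes against miR-451, in each tissue. By Pearson's r all 30 had a permutation p under 0.05 after Benjamini-Hochberg adjustment, and by Spearman's rho 28 did. The 2 that did not were Slc4a1 with Hba-a1 (permutation adjusted p = 0.122) and with Alas2 (0.0546) in whole brain. For the 6 pairs without Slc4a1, Pearson's r was 0.977 to 0.999 in cortex (Spearman's rho 0.944 to 0.986) and 0.941 to 0.995 in whole brain (rho 0.811 to 0.951), each with a permutation adjusted p of at most 3.33e-05. Without the 2 arrays farthest from the median, r was 0.942 to 0.998 in cortex and 0.87 to 0.963 in whole brain. Within the slide that held 8 arrays of the tissue, it was 0.971 to 0.997 and 0.927 to 0.992. Within the 10-month arrays and within the 17-month arrays, none of the 6 pairs had an r under 0.956 in either tissue.

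Pairs with Slc4a1 were looser. Their r was 0.646 to 0.76 in cortex (rho 0.699 to 0.811) and 0.66 to 0.726 in whole brain (rho 0.476 to 0.685), with permutation adjusted p for r from 0.00404 to 0.0196. Within the 8 cortex arrays of slide 1, r was 0.24 to 0.384, and within the 10-month cortex arrays it was -0.122 to -0.00504. In whole brain r was 0.196 to 0.446 without the 2 farthest arrays. Other subsets gave higher values, at 0.534 to 0.723 in cortex without the 2 farthest arrays, 0.666 to 0.746 within the 17-month cortex arrays, 0.654 to 0.744 within the 8 whole brain arrays of 1 slide, and 0.604 to 0.70 within the 17-month and 0.4 to 0.524 within the 10-month whole brain arrays. The relation of Slc4a1 to the other genes thus depended on which arrays entered, and in whole brain it did not hold without the 2 farthest.

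The miRNA arrays were matched to the mRNA arrays by group and sample number, on the assumption that the same label marks the same RNA, which the labels do not state. miR-451 is a miRNA made in large amounts in red cell precursors, and its mature sequence in RefSeq (GRCm38.p6, chr11:78073186-78073207, plus strand, there named miR-451a) is shown with the seed, bases 2 to 8, in capitals.
miR-451: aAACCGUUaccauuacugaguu
It was above background on all 24 miRNA arrays and ranged from -3.61 to 1.22, a span of 28.4-fold. Like the globins, it was lowest in Tg2576 cortex 17 months sample 2 and highest in sample 3 of the 10-month-old WT mice. miR-144, which comes from the same precursor transcript as miR-451, was above background on 6 of the 24 arrays.

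In WT cortex miR-451 measured -1.39, -0.38 and 0.86 at 10 months and -1.83, -2.13 and -2.07 at 17 months. WT whole brain gave -1.33, -0.34 and 1.22 at 10 months and -1.57, -1.93 and -2.02 at 17 months. Sample 3 was the highest and sample 1 the lowest at 10 months in both tissues, as for Hba-a1, Hbb-b2 and Alas2. In Tg2576 cortex it measured -1.05, -1.49 and -1.16 at 10 months and -2.09, -3.61 and -1.90 at 17 months. Tg2576 whole brain gave -0.94, -1.30 and -0.95 at 10 months and -1.88, -3.16 and -1.75 at 17 months. No 17-month sample reached the lowest 10-month sample of its genotype and tissue. The share of all miRNAs lower without overlap was not counted here, and the age difference of miR-451 was not tested.

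Pearson's r between miR-451 and the 3 globins and Alas2 was 0.956 to 0.97 in cortex (rho 0.853 to 0.909) and 0.926 to 0.967 in whole brain (rho 0.839 to 0.916), with permutation adjusted p of at most 0.00039. Without the 2 arrays farthest from the median it was 0.91 to 0.947 in cortex and 0.816 to 0.927 in whole brain. Within the 17-month arrays of cortex, r with Hba-a1 was 0.964 with a permutation p of 0.114. Slc4a1 had an r of 0.62 with miR-451 in cortex and 0.685 in whole brain.

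**Figure D4:**
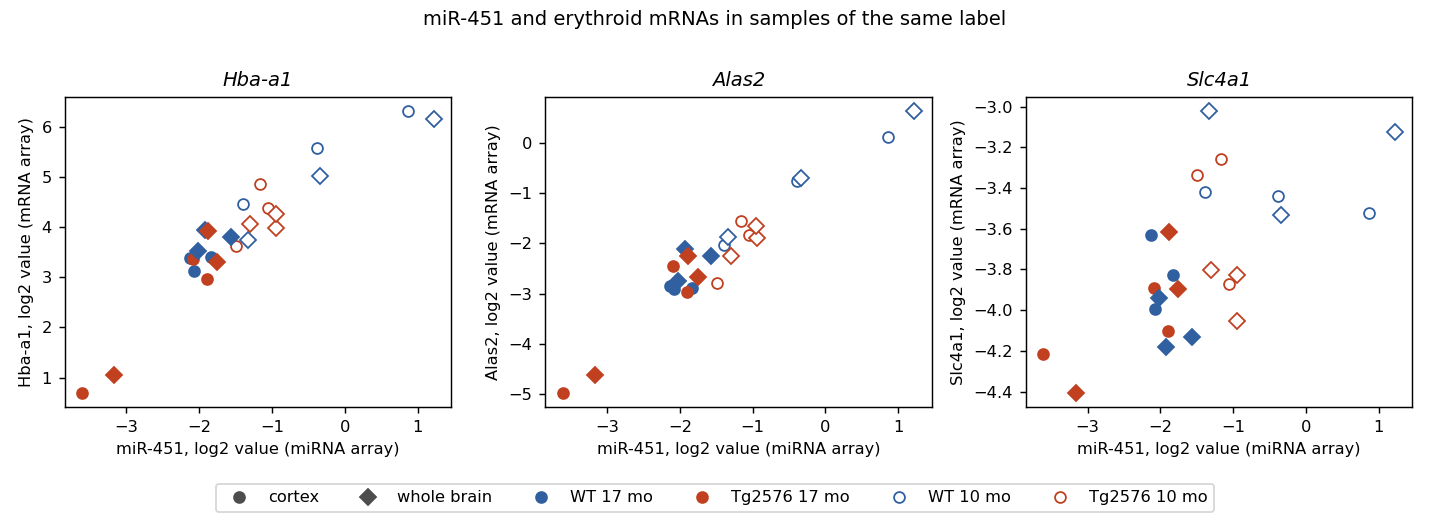
Log2 values of Hba-a1, Alas2 and Slc4a1 on the mRNA array (y axis) against miR-451 on the miRNA array (x axis) for the 24 samples with the same label. Circles are cortex and diamonds whole brain, filled symbols are 17 months and open symbols 10 months, blue is WT and red is Tg2576. Hba-a1 and Alas2 rise with miR-451 from the sample 2 points of 17-month-old Tg2576 mice, at -3.61 and -3.16, to sample 3 of the 10-month-old WT mice, at 0.86 and 1.22.

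Among 15759 other genes well above background on at least 12 arrays, the gene most like Alas2 and most like Hba-a1 over the 24 arrays was Hbb-bt, another adult beta globin gene, with r of 0.969 and 0.961. No other gene had an r over 0.9 with either. The next 9 for Alas2 were Anxa3, Pdzph1, Ppp1r3c, Luzp2, Dio2, Isg20, Slc38a2, Crem and Crot, with r from 0.831 down to 0.788. The next 9 for Hba-a1 were P4ha1, Pdzph1, Anxa3, Mrpl42, Zfp143, Noxred1, Cul2, Gm5820 and Katna1, with r from 0.843 down to 0.80. These arrays share groups, slides and scaling, and the values are a description.

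Other genes of the red cell lineage gave a more mixed picture. For the call counts of this and the following lists, the share of all probes called higher at 17 months was 2.94% in WT cortex, 5.6% in Tg2576 cortex, 12.7% in WT whole brain and 6.57% in Tg2576 whole brain, and the share called lower was 1.62%, 4.69%, 15.2% and 5.54%. Of 9 further globin genes 7 were on the array. Hbb-bt moved with Hbb-b2, at -2.40 in WT cortex (SE 0.43, limma adjusted p = 0.0429) and -2.58 in WT whole brain (SE 0.50, adjusted p = 0.0156) at 17 against 10 months, and at -2.35 and -2.19 in Tg2576 cortex and whole brain without being called. No other of these globins was called in the age comparisons. The embryonic globins Hbb-y and Hba-x were above background on 0 arrays.

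The 16 red cell membrane genes held the structural proteins of the red cell skeleton and blood group carriers, with Epb41 the highest. Rhag and Kel, both carriers of blood group antigens, were well above background on 0 of the 24 arrays, and Epb42 on 1. Of the 11 tested for age, Sptb, a spectrin that neurons also express, rose in all 4 comparisons by 0.59 to 0.71. In WT whole brain Rhd rose by 0.57 and Ermap fell by 0.60. Rhd was low, with a mean of -4.71, and well above background on 21 arrays. The list's median ranged from 0.04 to 0.19 against -2.0 to -1.25 for the 5 erythroid genes.

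Gata1, the master regulator of the erythroid lineage, was well above background on 0 arrays and Nfe2 on 1. Of the 7 of 9 regulators tested, Zfpm1, a partner of GATA factors and the highest of the list, rose by 0.83 and 0.93 in WT and Tg2576 cortex and by 1.03 and 1.17 in whole brain. Klf1, an activator of beta globin, fell by 0.65 (SE 0.10, limma adjusted p = 0.00843) in WT whole brain, where Epor rose by 0.54. Klf1 lay near the floor of the arrays, with a mean of -5.10, and was well above background on only 17 arrays. Tal1 rose by 1.49 in Tg2576 cortex, and Tfrc, the transferrin receptor, fell by 0.43 in Tg2576 whole brain.

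Of 12 further genes of haem synthesis, Alad rose in all 4 age comparisons by 0.36 to 0.57. Alas1, the form of the first enzyme outside red cells, rose by 0.40 in Tg2576 cortex and 0.38 in WT whole brain. In the latter Tmem14c rose by 0.23 and Fech fell by 0.24. Urod had the highest mean, and the medians of the list ranged from 0.04 to 0.11. Of 20 late erythroid gene symbols 18 matched a named probe and 15 or 16 were tested, and Prdx2 had the highest mean. None was called in WT cortex by limma, and in WT whole brain Tspo2 rose by 0.26 while Isg20 fell by 0.92 and Hemgn by 0.54. Cygb, a globin of brain cells, rose by 0.59 in WT and 0.72 in Tg2576 whole brain, opposite to Hba-a1 and Hbb-b2. Between genotypes 0 genes of these lists were called by limma, as 0% of all probes were.

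Markers of the other cells of blood and of the vessel wall were read beside these values. Over the arrays of a group, the summed linear level of the 5 erythroid genes, relative to the 75th percentile, ranged from 102.8 to 314.9 in WT cortex at 10 months and from 40.9 to 50.2 at 17 months. In WT whole brain it ranged from 76.4 to 333.0 and from 53.8 to 71.5. In Tg2576 mice it ranged from 61.5 to 133.5 and 8.69 to 51.4 in cortex, and from 81.9 to 104.2 and 12.2 to 73.5 in whole brain. The 17-month sums were lower than the 10-month sums without overlap in all 4 pairs.

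The platelet sums were lower at 17 months without overlap in WT whole brain and overlapped in the other 3 pairs. The 10 platelet genes summed to 1.03 to 1.27 in WT cortex at 10 months and 1.02 to 1.24 at 17 months, to 1.06 to 1.29 and 0.97 to 1.0 in WT whole brain, to 0.99 to 1.14 and 0.85 to 1.11 in Tg2576 cortex, and to 0.98 to 1.04 and 0.89 to 1.47 in Tg2576 whole brain. Pf4, the platelet chemokine and the highest of the list, fell by 0.49 (SE 0.09, limma adjusted p = 0.0123) in WT whole brain, where Tubb1 rose by 0.88, and Gp1bb rose by 0.49 in WT cortex. Tubb1 was low, with a mean of -4.33, and well above background on 23 arrays. No platelet gene was called in Tg2576 mice. Over the 24 arrays Pf4 had an r of 0.69 with Alas2 and 0.70 with Hba-a1, at place 133 of 15759 genes for each. Of the other platelet genes in that ranking only Gp9 had a positive r, at 0.16 and 0.21. Gp5 was at -0.59 and -0.63. Some markers of other tissue ranked above Pf4 for 1 or both genes. With Alas2 and Hba-a1, meningeal Ogn had an r of 0.77 and 0.80 (places 16 and 11). Pericyte Rgs5 had 0.67 and 0.73 (places 206 and 65), and endothelial Ly6a 0.70 and 0.67 (places 98 and 264). Those lists also held negative values, such as -0.26 and -0.24 for Col1a1, -0.49 and -0.54 for Pdgfrb, and -0.62 and -0.64 for Cldn5. The part of platelet content in the erythroid values was not tested.

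Neutrophil markers (11 genes, 10 on the array, S100a9 the highest) summed to between 0.64 and 1.41 on 21 of the 24 arrays. The other 3 were WT whole brain 10 months sample 1, at 4.22, and Tg2576 whole brain 17 months samples 1 and 3, at 4.39 and 3.56. Mmp9 was the only one called with age, higher by 0.57 in Tg2576 cortex and 0.30 in WT whole brain. It lay near the floor of the arrays, with a mean of -5.02, and was well above background on 18 arrays. In Tg2576 whole brain all 7 tested were higher at 17 months, with a median of 1.62 and 0 called. Within Tg2576 whole brain at 17 months the summed erythroid level was 73.5, 12.2 and 55.9 in samples 1 to 3, the same order as the neutrophil sums of 4.39, 1.39 and 3.56. In WT whole brain at 10 months sample 1 had the highest neutrophil sum of its group, the lowest summed erythroid level (76.4) and the highest Slc4a1 value of all arrays. The part of neutrophil content in the erythroid values was not tested.

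Lymphocyte markers (12 genes, 10 on the array, 7 tested, Cd4 the highest) gave 1 call lower in Tg2576 cortex (Cd3e, -0.45). In Tg2576 whole brain 2 were called higher (Cd79b, 1.17, and Cd3e, 0.41). Cd79b was low, with a mean of -4.73, and well above background on 21 arrays. Cd3e had a mean of 0.69, while Cd3d was at -4.83 and Cd3g was well above background on 1 array. Whether the Cd3e signal came from lymphocytes was not tested. Monocyte markers (7 genes, 6 on the array, F10 the highest) gave 1 call lower in each whole brain comparison (Ly6c1, -0.37 and -0.41). The F10 probe had a mean of 9.28, beyond the 6.95 of the neuron marker Syt1. Whether the F10 and Ly6c1 signals came from monocytes was not tested. Genes that take up or break down haem and iron (11, Fth1 the highest) gave 0 calls in WT cortex, 1 higher in Tg2576 cortex (Lrp1, 0.58), 3 higher in WT whole brain (Ftl1, 0.46, Hmox1, 0.43, and Lrp1, 0.36) and 4 higher in Tg2576 whole brain (Lcn2, 0.81, Lrp1, 0.53, Ftl1, 0.51, and Fth1, 0.35). Of all probes, 2.94%, 5.6%, 12.7% and 6.57% were called higher in these comparisons, and 4.69% were called lower in Tg2576 cortex.

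Endothelial markers, all 11 well above background on all arrays with Kdr the highest, held more called genes that rose than fell in each age comparison. Vwf, which encodes von Willebrand factor, rose by 0.78 and 1.03 in WT and Tg2576 cortex and by 1.06 and 1.28 in whole brain. Cldn5, the tight junction protein of brain vessels, rose by 0.69 and 0.57 in cortex and by 0.90 and 0.92 in whole brain. Calls were 3 higher and 2 lower in WT cortex, 4 and 1 in Tg2576 cortex, and 6 and 1 in each whole brain comparison, where Ly6a was the gene that fell, beside 2.94%, 5.6%, 12.7% and 6.57% of all probes called higher in WT cortex, Tg2576 cortex, WT whole brain and Tg2576 whole brain.

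The summed endothelial level was 22.1 to 24.2 at 10 months and 23.3 to 26.4 at 17 months in WT cortex, and 22.5 to 23.6 and 24.3 to 27.1 in Tg2576 cortex. In whole brain it was 20.9 to 23.3 and 28.1 to 29.8 in WT mice, and 22.2 to 23.6 and 30.8 to 32.3 in Tg2576 mice. Pericyte and vessel muscle genes (10, Vtn the highest) gave 0 calls in WT cortex, 1 higher (Myh11, 0.75) and 1 lower (Rgs5, -0.55) in Tg2576 cortex, 2 higher in WT whole brain (Vtn, 0.68, and Pdgfrb, 0.60), and 2 higher (Pdgfrb, 0.56, and Vtn, 0.45) and 1 lower (Rgs5, -0.60) in Tg2576 whole brain. The part of vessel content in the erythroid values was not tested.

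**Figure D5:**
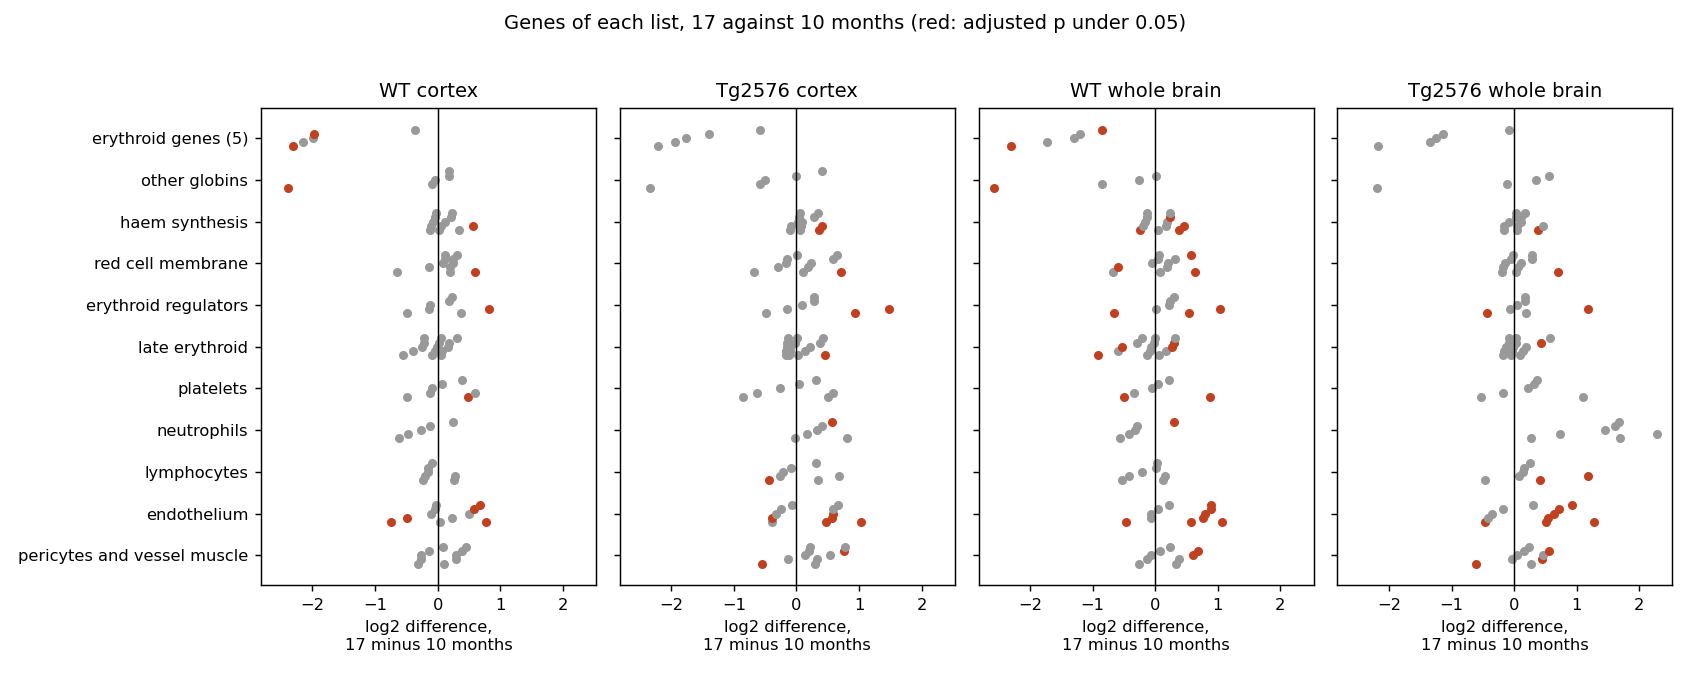
Log2 differences between 17 and 10 months (x axis) for every tested gene of each list (y axis), in the 4 comparisons of 3 against 3 samples. Each point is 1 gene, and red points have an adjusted p under 0.05. Hbb-b2 and Hbb-bt, the leftmost point of the other globins, lie below -2 in all 4 panels, the other erythroid genes lie between -2.15 and -0.08, all 7 neutrophil points in Tg2576 whole brain lie above 0 with a median of 1.62, and endothelial points reach 1.28.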

How the data were processed

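Total RNA was extracted with the mirVana PARIS kit and hybridised to Agilent single-colour arrays. The authors scanned them with Agilent Feature Extraction 10.7.3.1 per the submitters' processing notes. The deposited scanner files hold processed intensity, background and flags per spot, and the deposited matrix holds log2 values that match log2 intensity minus a constant close to the 75th percentile of each array. Here log2 of the deposited processed intensity minus the 75th percentile of the array was used for 24 mRNA arrays, and for 24 miRNA arrays the percentile came from the 403 probes detected above background on every array.

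Groups of 3 were compared with limma 3.58.1 (lmFit, eBayes) in R 4.3.3, with 1 fit per comparison and Benjamini-Hochberg adjustment over all probes that were above background on 2 or more arrays of either group, at a threshold of 0.05. Relations used two-sided permutation tests with 100000 resamples. The R package data.table was at version 1.17.8, and figures were drawn with matplotlib 3.10.9. The fits were tested on simulated data. Alternatives were the authors' log2 values, other scalings and background correction, no filter, 1 model of 24 arrays, blocks for slide or sample number, the t-test of the methods, and the omission of each sample in turn. Of 55681 probes 26056 were named through RefSeq transcripts (GRCm38.p6). A list gene is said to be on the array if its symbol was among those named. The 5 erythroid genes were all named with their values, differences were printed for genes called or without overlap, and of each marker list the called genes (at most 5) and the gene with the highest mean were named. The genes, lists and tests were chosen with earlier results of these data known. Meninges and choroid plexus lists are described in the closing section. Some genes of these lists are not reported here.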

Additional observations from a re-analysis of the deposited data

How the results depend on the processing

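The medians of the 5 genes kept their direction in the age comparisons under every alternative, from -2.57 to -1.65 in WT cortex, -2.25 to -0.998 in Tg2576 cortex, -1.83 to -0.81 in WT whole brain and -1.71 to -0.49 in Tg2576 whole brain, and the medians of Tg2576 against WT were below 0 throughout, while those of cortex against whole brain changed sign when single samples were left out in all but the 17-month-old WT mice. Calls were less stable, and the cause was not tested. In WT cortex at 17 against 10 months, 2 genes were called, against 0 with median centring, 0 with no filter, 0 with slide as a block, 0 by the methods' t-test after Benjamini-Hochberg adjustment, 5 by that test unadjusted, 4 with normexp, and 0 to 0 when samples were left out. In WT whole brain 2 were called, against 1 with no filter and 1 by the methods' t-test after adjustment. When samples were left out 1 to 5 were called (5 without 10-month sample 1, and 1 without 10-month sample 2 or 17-month sample 1 or 3). Of all probes, 5336 to 7689 were called in those omissions, in place of 10479. In Tg2576 mice 0 were called, against 2 in cortex with normexp and 2 with all 24 arrays, and 1 in whole brain with normexp and 1 with all 24 arrays. Unadjusted, the methods' t-test gave 1 gene for Tg2576 against WT in whole brain at 10 months and 2 for cortex against whole brain in WT mice at 17 months. Apart from the omissions of samples, these counts are given without the share of all probes called under the same alternative.

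With sample number as a block (replicate block), 0 genes were called in WT cortex and 1 in WT whole brain at 17 against 10 months, and no other count of these genes changed. Over all probes that block gave 0 calls in place of 1802 in WT cortex, 15 in place of 4025 in Tg2576 cortex, 4760 in place of 10479 in WT whole brain and 13 in place of 4591 in Tg2576 whole brain. In no comparison did every pair of same-numbered samples correlate over 0.1 in their deviations, so the numbers were not taken as a pairing. In cortex against whole brain of 17-month-old Tg2576 mice, however, each sample correlated best with its own number (r 0.068, 0.158 and 0.158). In the erythroid genes alone, deviations of same-numbered cortex and whole brain samples had an r of 0.95 to 0.99 for the globins and Alas2. For Slc4a1 it was 0.40. In cortex against whole brain of 10-month-old WT mice, the block lowered the SE of Hbb-b2 from 0.63 to 0.08. Its limma adjusted p went from 0.613 to 0.189, where 0 of all probes were called with the block. The SE of Slc4a1 changed little there, from 0.14 to 0.13.

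Of the 30 relations, 12 had an adjusted p under 0.05 within the 17-month arrays, an alternative added after seeing the data. Within the 10-month cortex arrays, also added then, r with Slc4a1 turned negative, at -0.0483 for Hba-a1, -0.00504 for Hba-a2, -0.0491 for Hbb-b2, -0.122 for Alas2 and -0.18 for miR-451. Averaging several probes of a gene was not run, since each gene has 1 probe. Slc4a1 lies close to background, which limits what its small range can show.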

Other observations

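Tissue that borders the brain was read through 2 further lists. Of 10 meningeal genes, all on the array, 0 were called with age in WT cortex. In Tg2576 cortex 3 fell at 17 months, Ogn by 1.38, Aldh1a2 by 0.83 and Dcn by 0.69. In WT whole brain 4 rose, led by Igf2 (1.14) and Col1a1 (0.87), and 2 fell (Ogn, -0.71, and Dcn, -0.44), and in Tg2576 whole brain Col1a1 rose by 1.27 and Col1a2 by 0.84. Dcn had the highest mean. Of all probes, 4.69% were called lower in Tg2576 cortex, 12.7% higher and 15.2% lower in WT whole brain, and 6.57% higher in Tg2576 whole brain.

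Of 10 choroid plexus genes only Sostdc1 in WT whole brain was called (0.54), and Ttr had the highest mean. Their summed level ranged from 9.81 to 69.4 across the cortex arrays and from 17.4 to 41.6 across the whole brain arrays. Among neuron markers Rbfox3 rose at 17 months in all 4 comparisons, by 0.56 and 0.44 in WT and Tg2576 cortex and by 0.77 and 0.79 in whole brain, and Syt1 had the highest mean.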
